A study of Homo sapiens with 22 samples.

Results

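The transcriptional response of MDA-MB-231 cells to 4 h of CpdA was measured by RNA-seq in 2 samples and set against 2 vehicle samples, which are 4 of the 10 RNA-seq samples and of the 22 samples of the series. MDA-MB-231 is an established TNBC cell line that carries a mutant p53, and CpdA is a selective modulator of the glucocorticoid receptor (GR), given here at 10 μM. Cells had been kept in medium with charcoal-stripped serum, which is low in steroid hormones, before treatment, and this held for every group. No time was labelled for the vehicle samples, whereas the names of their deposited tables carried 2 h for replicate 1 and 4 h for replicate 2, so that each gene was also compared with each vehicle sample separately. The remaining RNA-seq groups that enter below were CpdA for 2 h (10 μM) and Dex, the synthetic glucocorticoid dexamethasone, for 4 h (100 nM), each with 2 samples. Another group, Dex for 2 h (100 nM, 2 samples), entered only the filter and the shared estimate of the spread. The other 12 samples are chromatin experiments and were not used here. Of 20668 gene symbols in the tables, 12713 reached an RPKM of 0.5 in 2 or more of the 10 samples and were tested. RPKM is the number of reads on a gene, scaled to the length of its transcript in kilobases and to the number of mapped reads of the sample.

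The groups of genes described below belong to known response systems. HSF1 drives the heat shock response, in which chaperones of the HSP70, HSP40 (DNAJ) and HSP90 families are made when unfolded proteins accumulate in the cytosol. NRF2, encoded by NFE2L2, is held down by KEAP1 and turns on antioxidant and glutathione genes when KEAP1 is modified by reactive molecules. Unfolded protein in the endoplasmic reticulum is sensed by IRE1, ATF6 and PERK, and PERK shares the factor ATF4 with other branches of the integrated stress response. Immediate early genes such as FOS and the NR4A receptors are transcribed within minutes of a stimulus without new protein synthesis. Ligand-bound GR, encoded by NR3C1, activates a well-known set of targets that includes FKBP5, TSC22D3 (GILZ) and PER1 and is known to lower many NF-kB target genes.

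The total number of reads was not given in the tables. Relative depth was read from the most frequent ratio, gene by gene, of RPKM in vehicle replicate 1 to RPKM in another sample. Genes with equal reads in both samples share this ratio. With vehicle replicate 1 set at 1.00, it gave 1.01 in vehicle replicate 2 and 1.16 in each CpdA 4 h sample. The part of this gap in the results was not tested. The CpdA 4 h duplicates had a Spearman correlation of 0.999 across genes and an SD of their log2 difference of 0.196, against 0.996 and 0.261 for the vehicle duplicates. The mesenchymal markers VIM, CD44, EGFR, AXL and CAV1 were expressed in all 10 samples, with a median of 1400.1 RPKM for VIM, and ESR1 and PGR did not exceed 0.0048 RPKM in any sample. ERBB2 and EPCAM were present at medians of 18.7 and 9.49 RPKM, whereas CDH1 and CLDN3 were low at 0.361 and 0.895 RPKM. Because RNA was taken from whole cultures, fewer cells of a kind and less RNA per cell cannot be told apart. Markers of blood, endothelial and liver cells (PTPRC, PECAM1 and ALB) stayed at or below 0.324 RPKM.

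Before the expression values, the DNA in front of 4 heat shock genes and 2 endoplasmic reticulum genes is shown, because they lead groups with many increases and recur below. RefSeq promoter windows were used for the 250 bases before the transcription start (GRCh38.p14), written 5′ to 3′ in the direction of the gene. In the 4 heat shock genes below the capitals mark a pair of inverted heat shock units, GAANNTTC or TTCNNGAA, the core to which HSF1 is known to bind. Adjacent pairs may overlap by 1 unit.
HSPA6 (chr1:161524290-161524539, plus strand): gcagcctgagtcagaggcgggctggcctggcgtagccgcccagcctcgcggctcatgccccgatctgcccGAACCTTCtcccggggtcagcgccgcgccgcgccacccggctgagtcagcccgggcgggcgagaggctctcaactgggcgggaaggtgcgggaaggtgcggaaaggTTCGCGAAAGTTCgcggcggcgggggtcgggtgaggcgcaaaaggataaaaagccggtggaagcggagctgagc
HSPA1A (chr6:31815293-31815542, plus strand): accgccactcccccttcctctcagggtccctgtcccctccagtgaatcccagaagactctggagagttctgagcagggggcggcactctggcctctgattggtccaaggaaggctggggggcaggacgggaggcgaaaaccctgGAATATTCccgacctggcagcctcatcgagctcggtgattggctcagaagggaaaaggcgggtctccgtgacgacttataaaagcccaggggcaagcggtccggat
HSPA1B (chr6:31827488-31827737, plus strand): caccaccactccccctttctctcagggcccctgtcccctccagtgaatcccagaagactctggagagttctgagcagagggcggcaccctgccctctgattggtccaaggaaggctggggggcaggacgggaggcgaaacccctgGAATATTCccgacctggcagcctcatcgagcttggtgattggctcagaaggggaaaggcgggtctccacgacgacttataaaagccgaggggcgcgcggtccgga
DNAJB1 (chr19:14518398-14518647, minus strand): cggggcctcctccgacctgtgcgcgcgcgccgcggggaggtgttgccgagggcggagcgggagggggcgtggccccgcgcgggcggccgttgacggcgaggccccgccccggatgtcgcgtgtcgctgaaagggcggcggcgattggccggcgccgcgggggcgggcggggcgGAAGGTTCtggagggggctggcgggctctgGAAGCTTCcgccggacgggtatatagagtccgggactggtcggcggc
HSPA6 held 3 such pairs, beginning 180, 74 and 69 bases before the start, the last 2 sharing a unit. HSPA1A and HSPA1B held 1 each, at 106 and 105 bases, and their windows were 94.0% identical over 250 bases. DNAJB1 has 3 annotated starts, and the window shown here was picked because none of the 3 held more pairs. It held 2 pairs, at 77 and 47 bases. Of all 35116 windows of this length, 11.6% held at least 1 such pair on either strand. Counting a gene when any of its windows held a pair, the share was 11.9% of the 9966 tested genes that had a window. By that count a pair was held by 5 of the 11 HSP70 and HSP110 genes and 5 of the 33 DNAJ genes with a window. It was held by 2 of the 24 ATF4 genes and 1 of the 23 unfolded protein genes with a window.

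For the endoplasmic reticulum genes the capitals mark the endoplasmic reticulum stress element, searched as CCAAT and CCACG separated by 9 bases, or as ATTGG and CCACG separated by 1 base. Both forms were chosen after expression values had been seen.
HSPA5 (chr9:125241344-125241593, minus strand): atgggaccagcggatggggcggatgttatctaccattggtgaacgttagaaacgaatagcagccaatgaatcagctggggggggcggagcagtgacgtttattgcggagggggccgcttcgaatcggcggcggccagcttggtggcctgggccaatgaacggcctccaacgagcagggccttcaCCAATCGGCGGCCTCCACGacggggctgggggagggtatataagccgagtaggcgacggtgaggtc
HERPUD1 (chr16:56931892-56932141, plus strand): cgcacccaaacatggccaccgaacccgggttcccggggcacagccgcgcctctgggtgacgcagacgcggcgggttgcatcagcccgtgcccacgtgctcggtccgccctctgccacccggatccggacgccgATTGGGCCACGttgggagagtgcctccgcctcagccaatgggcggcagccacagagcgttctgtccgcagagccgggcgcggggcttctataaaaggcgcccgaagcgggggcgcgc
The match began 66 bases before the start in HSPA5 and 117 bases before it in HERPUD1. Either form was found in 0.125% of all 35116 windows. Counting a gene when any of its windows matched, it was found in 0.301% of the 9966 tested genes that had a window. By the same count it was found in 11 of the 23 genes of the unfolded protein response list that had a window. The other motifs searched on both strands were TGACNNNGC (antioxidant response element core), TGACGTCA (cyclic AMP response element) and TGATGCAA (ATF4 composite core). They were found in 10.9%, 1.65% and 0.772% of windows. By gene they were found in 16.1%, 3.55% and 0.552% of the tested genes that had a window. Only 78.4% of the tested genes could be matched to a window with current and older symbols, so the share of called against uncalled genes that hold a motif is void and is not given. A match describes the letters in the window and is not evidence of binding.

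At 4 h of CpdA, 68 genes were higher and 45 lower than vehicle at a fold change above 2 and a false discovery rate (FDR) under 0.05, or 0.535% and 0.354% of the genes tested. The leading increases were in HSP70 genes, antioxidant genes and immediate early genes, and the leading decreases included the growth factor gene PDGFB, the cytokine gene CSF2 and the lipid enzyme gene DGAT2. Differences are given on the scale of log2(RPKM + 0.1), which understates the change of low genes, with the standard error (SE) and adjusted p of a limma fit over the 10 samples. A single number in parentheses after a gene is its log2 difference from vehicle, and pairs of RPKM values are replicates 1 and 2 in that order. The labels only number the duplicates, n = 2 in every group, and the study describes them as biological. Nothing further on how separate the cultures were was used. The spread of the vehicle pair may include a difference in time, which was not tested. At an FDR under 0.05 alone, 860 genes were higher (6.76%) and 1749 lower (13.8%), so that 33.0% of these calls were increases. This split depended on scaling, since increases made up 46.8% of the calls after quantile normalization and 45.3% after median scaling. Without CpdA 4 h replicate 1 the counts were 408 and 782, and without replicate 2 they were 406 and 849. The median difference over all genes tested was -0.04, and the middle 50% of genes lay between -0.17 and 0.07.

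In each of the 2609 genes called by FDR, the CpdA 4 h samples did not overlap with the vehicle samples. That arrangement was common among all genes tested, with 25.1% above and 39.5% below. Set against each vehicle sample on its own, 59 of the 68 increases and 29 of the 45 decreases exceeded 2-fold with both. A further 12 genes did so without passing the FDR. The vehicle samples themselves were more than 2-fold apart in 4 of the 68 and in 5 of the 45 genes. Among the genes named below, a call was lost without at least 1 of the 4 samples for ANGPTL4, BAG5, BNIP3L, CCL2, CDC6, CDK6, CHORDC1, CTGF, CXCL1, CXCL2, DNAJC5, DUSP10, EBP, EDN1, EGLN1, EREG, FKBP5, GADD45A, GLUL, HIF1A, HILPDA, JUN, MT1A, NFKBIB, PCNA, PER1, PHLDA3, PLIN2, PSMC4, PSMD14, RPL13AP5, SCD, SKIL, SMAD2, SPRY4-IT1, STARD4, TGFB2, TGIF2-C20orf24, TSC22D3, TUBB2A, TUBB4B and UBQLN2. A call was gained without vehicle replicate 1 for ERRFI1, NFE2L2 and NFKBIA, and without vehicle replicate 2 for BIRC3, CYR61, NEDD9, UBB and VEGFA.

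**Figure D1:**
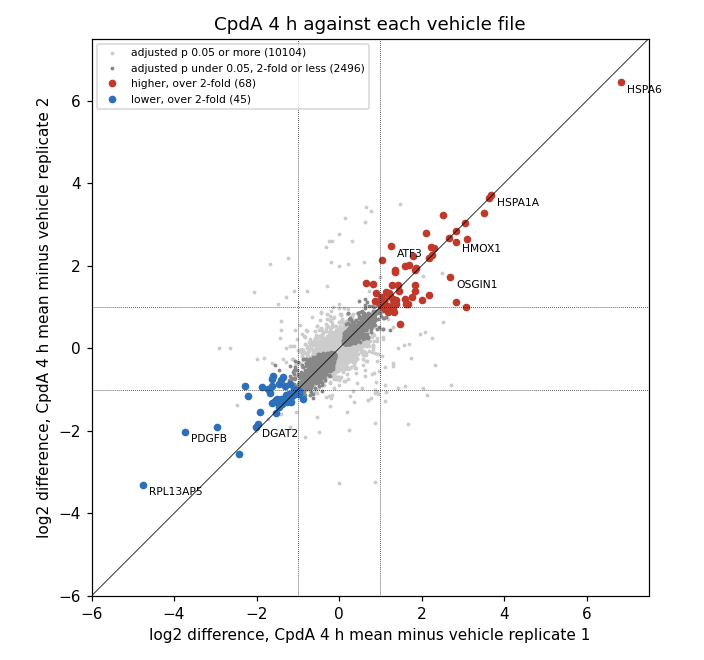
Each point is 1 of the 12713 genes tested, with the log2 difference of the CpdA 4 h mean from vehicle replicate 1 on the x axis and from vehicle replicate 2 on the y axis, and dotted lines at 2-fold. HSPA6, HSPA1A and HMOX1 lie near the diagonal, whereas PDGFB and RPL13AP5 were further from vehicle replicate 1 than from replicate 2.

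HSP70 chaperones gave the 3 greatest increases among called genes once symbols of short RNAs were set aside. HSPA6, a strictly inducible HSP70, had an RPKM of 0.331 and 0.457 in the vehicle samples and 43.6 and 54.4 in the CpdA 4 h samples. This was a 124-fold difference of the means and a log2 difference of 6.64 ± 0.16 (SE, adjusted p = 9.4e-08). Both vehicle values of HSPA6 were under the 0.5 RPKM of the filter, which the gene could pass through the CpdA samples. That favours increases among genes low in vehicle, and its part in the list counts was not tested. HSPA1A, a major stress-inducible HSP70, rose from 1.68 and 1.63 to 20.7 and 24.6 RPKM, with a log2 difference of 3.69 ± 0.09 (SE, adjusted p = 9.4e-08). HSPA1B rose from 4.77 and 5.59 to 51.6 and 59.6 RPKM, with a log2 difference of 3.40 ± 0.10 (SE, adjusted p = 1.3e-07). In each of these genes the lowest CpdA value exceeded the highest vehicle value by a wide margin. HSPA1A and HSPA1B are near-identical copies whose reads may have been divided between them, so their separate levels are uncertain. HSPH1, an HSP110 that acts as exchange factor for HSP70, was at 27.2 and 29.6 RPKM in vehicle and 55.9 and 63.5 RPKM in CpdA samples (log2 difference 1.07, adjusted p = 9e-05).

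Of the 12 HSP70 and HSP110 genes tested, 9 rose and 0 fell, with a median log2 difference of 0.54 against -0.04 over all genes. HSPA4, the most abundant member that did not pass, was at 58.5 and 62.1 RPKM in vehicle and 64 and 68.1 RPKM after CpdA (adjusted p = 0.13). Among 35 DNAJ co-chaperones, which deliver clients to HSP70, 10 rose and 1 fell. DNAJB1, the main stress-inducible HSP40, rose from 84.1 and 79 to 287 and 323 RPKM, a 3.74-fold difference with a log2 value of 1.90 ± 0.06 (SE, adjusted p = 4.2e-07). DNAJB9 of the endoplasmic reticulum (1.48), DNAJB4 (1.21) and DNAJB5 (0.91) followed on the log2 scale. DNAJC5, a synaptic vesicle co-chaperone, was the member that fell (-0.17, adjusted p = 0.043), and DNAJC8 was at 32.5 and 32.4 RPKM in vehicle and 34.1 and 34 RPKM after CpdA.

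HSP90 and its co-chaperones moved by less. Of 25 tested, 12 rose and 1 fell, none beyond 2-fold, with a median of 0.14, and without CpdA 4 h replicate 2 the number that rose was 7. BAG3, a co-chaperone that links HSP70 to autophagy, rose by a log2 value of 0.69, from 56.7 and 53.9 to 84.9 and 94.1 RPKM. The inducible HSP90AA1 and the constitutive HSP90AB1 rose by 0.57 and 0.40, and CHORDC1, an HSP90 co-chaperone, by 0.42. BAG5 fell (-0.22, adjusted p = 0.015), and CDC37, which loads kinases onto HSP90, was at 123 and 130.5 and then 128 and 129 RPKM. Of 17 small heat shock proteins, chaperonins and heat shock factors, 6 rose and 0 fell, and 10 rose after median scaling. HSPB8, a small heat shock protein that works with BAG3, rose from 4.14 and 3.55 to 9.67 and 8.92 RPKM (log2 difference 1.26, adjusted p = 7.4e-05). The mitochondrial chaperonins HSPD1 and HSPE1 rose by 0.43 and 0.29, and TCP1 of the cytosolic chaperonin by 0.29. HSPB1 was at 159 and 166 RPKM in vehicle and 180.5 and 188 RPKM after CpdA (adjusted p = 0.12). The mRNA of HSF1 itself was 56.9 and 62 RPKM in vehicle and 59.1 and 58.3 RPKM after CpdA, a log2 difference of -0.02 ± 0.06 (SE, adjusted p = 0.88).

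Genes of protein degradation were divided. Of 47 proteasome and assembly genes, 2 rose (4.26%) and 0 fell, beside 6.76% and 13.8% of all genes. Their median was 0.07, and 8 rose after median scaling. PSMC4 (0.24) and PSMD14 (0.15) were those that rose, and PSMA7 was at 229 and 237 and then 254 and 244 RPKM. Of 16 ubiquitin genes and shuttling receptors, 6 rose (37.5%) and 1 fell (6.25%). ZFAND2A, a proteasome-associated protein also known as AIRAP, rose from 23 and 25.5 to 52.1 and 52.2 RPKM (log2 difference 1.11, adjusted p = 4.4e-06). The autophagy receptor SQSTM1 (p62) rose by 0.53 and the segregase VCP by 0.21, while UBQLN2 fell (-0.23, adjusted p = 0.019). UBB, a gene of ubiquitin itself, was at 221 and 263 RPKM in vehicle and 279.9 and 273 RPKM after CpdA (adjusted p = 0.15).

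**Figure D2:**
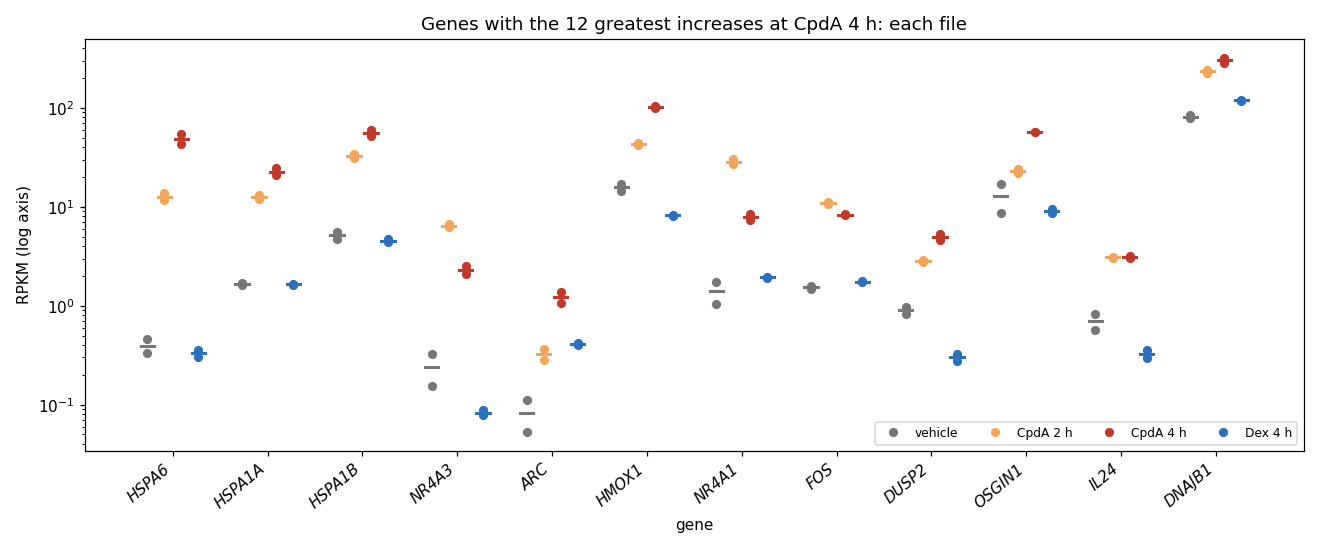
RPKM (log axis) of the 12 genes with the greatest increases at CpdA 4 h that passed the rule for naming, in each vehicle, CpdA 2 h, CpdA 4 h and Dex 4 h sample, with short bars at the mean of 2 samples. In all 12 genes both CpdA 4 h samples lie above both vehicle samples, and NR4A3, NR4A1 and FOS were higher at CpdA 2 h than at 4 h.

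Most antioxidant genes tested rose. Of 30 NRF2 response genes tested, 22 rose, 0 fell and 8 did not pass, with 7 beyond 2-fold and a median of 0.37. HMOX1, which degrades heme, rose from 14.4 and 17 to 100.2 and 105 RPKM, a 6.53-fold difference with a log2 value of 2.70 ± 0.07 (SE, adjusted p = 1.1e-07). OSGIN1, an oxidative stress-induced growth inhibitor, was at 8.76 and 17.1 RPKM in vehicle and 57 and 56.8 RPKM after CpdA, with a log2 difference of 2.21 ± 0.23 (SE, adjusted p = 0.00033). The vehicle values of OSGIN1 were almost 2-fold apart, and the CpdA mean lay 2.69 and 1.73 above vehicle replicates 1 and 2 on the log2 scale. GCLC and GCLM, the subunits of the enzyme that limits glutathione synthesis, rose from 8.80 and 11 to 32.2 and 31.5 RPKM and from 13.7 and 20.4 to 42.4 and 44.7 RPKM, with log2 differences of 1.69 and 1.37. SRXN1 (sulfiredoxin) rose by 1.50 and TXNRD1 (thioredoxin reductase) by 1.13. The list also included SLC7A11, the cystine transporter, and the ferritin genes FTL and FTH1 among its increases. Vehicle replicate 2 was above replicate 1 in 24 of the 30 genes, by a median of 0.05 on the log2 scale, and the part of this difference in the result was not tested. NFE2L2 mRNA was 68.3 and 49.8 RPKM in vehicle and 69 and 68.8 RPKM after CpdA (adjusted p = 0.18).

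Most genes of the integrated stress response rose too, with 22 of 28 genes higher, 0 lower and a median of 0.44. ATF3, a stress-induced bZIP repressor, had 13 and 5.57 RPKM in vehicle and 31.6 and 31.1 RPKM after CpdA, a log2 difference of 1.86 ± 0.29 (SE, adjusted p = 0.0022). DDIT3 (CHOP), a factor linked to cell death under stress, rose from 27.4 and 26.3 to 66.1 and 62.1 RPKM (log2 difference 1.25, adjusted p = 4.4e-06). DDIT4, an inhibitor of mTOR signalling, rose by 1.28 and CHAC1, which breaks down glutathione, by 1.14. ATF4 itself rose from 97.5 and 93 to 148 and 142 RPKM (log2 difference 0.61, adjusted p = 8e-05). The members that rose further included the sestrin gene SESN2, the asparagine synthetase gene ASNS, the serine and folate pathway genes PSAT1 and MTHFD2, and the pseudokinase gene TRIB3. SLC7A1, an amino acid transporter, was the most abundant member that did not pass, at 51.1 and 54.1 RPKM in vehicle and 64.1 and 62.6 RPKM after CpdA.

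The list of the unfolded protein response of the endoplasmic reticulum had the highest share of increases, 20 of 24, with 0 decreases and a median of 0.46. HERPUD1, a component of endoplasmic reticulum-associated degradation whose promoter is shown above, rose from 63.3 and 60.2 to 232 and 219 RPKM, a 3.65-fold difference with a log2 value of 1.87 ± 0.05 (SE, adjusted p = 1.1e-07). SDF2L1, a binding partner of lumenal chaperones, rose from 24.8 and 25.9 to 71.4 and 65.8 RPKM (log2 difference 1.43, adjusted p = 1.7e-06). HSPA5 (BiP), the HSP70 of the endoplasmic reticulum, was abundant in vehicle, at 438 and 433 RPKM, and reached 806 and 788 RPKM after CpdA, with a log2 difference of 0.87 ± 0.05 (SE, adjusted p = 1.4e-05). The CpdA values of HSPA5 lay within a few percent of each other and well above vehicle. ERO1L, an oxidase for disulfide formation, did not pass, at 50.0 and 46.2 RPKM in vehicle and 43.6 and 44 RPKM after CpdA. DNAJB9, DNAJC3, DNAJB11, HYOU1, HSPA5 and HSP90B1 also belong to chaperone lists above and are counted in each. With 1 of the 4 samples of the contrast left out in turn, 17 to 21 NRF2 genes, 18 to 21 ATF4 genes and 17 to 18 unfolded protein genes still passed as higher.

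**Figure D3:**
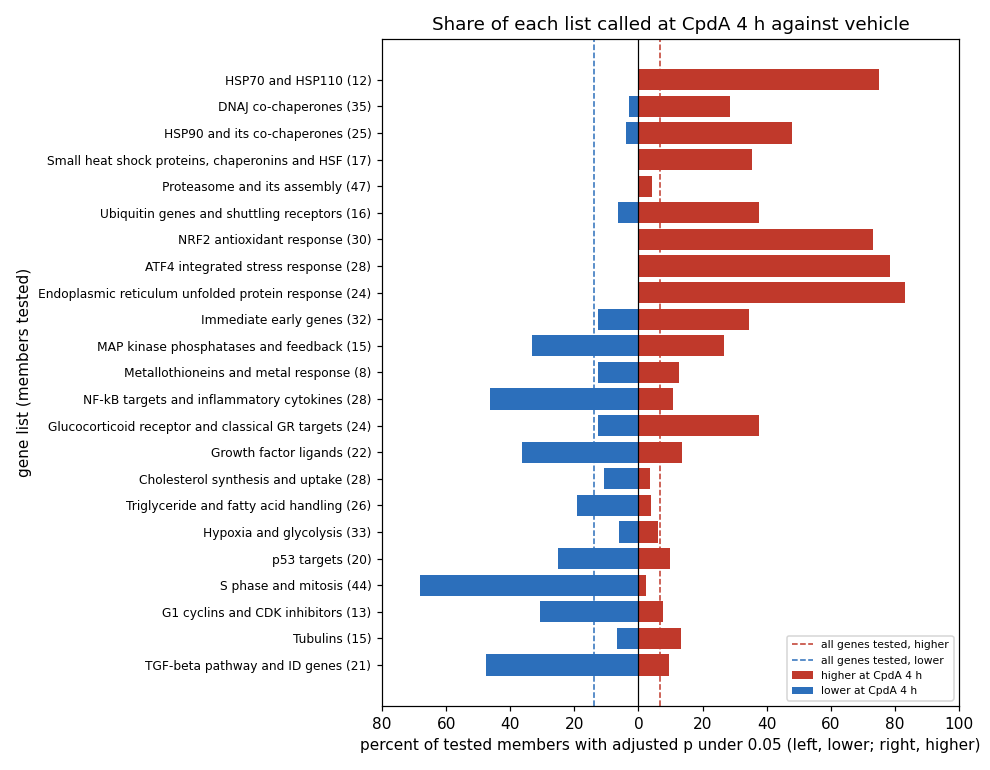
Percent of the tested members of each of 23 gene lists with an adjusted p under 0.05 at CpdA 4 h, with increases to the right and decreases to the left of 0 and the number of members in parentheses. Dashed lines give the shares over all genes tested, 6.76% and 13.8%. The 4 lists with the highest shares of increases are the unfolded protein response, ATF4, HSP70 and HSP110, and NRF2, and the S phase and mitosis list extends furthest to the left.

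Of 32 immediate early genes tested, 11 rose (34.4%, beside 6.76% of all genes) and 4 fell (12.5%, near the 13.8% of all genes), with a median of 0.11 and 7 increases beyond 2-fold. The orphan receptor NR4A1 was at 1.75 and 1.05 RPKM in vehicle and 7.30 and 8.54 RPKM after CpdA, with a log2 difference of 2.46 ± 0.19 (SE, adjusted p = 7.6e-05). NR4A3 rose from 0.322 and 0.156 to 2.10 and 2.53 RPKM (2.87) and NR4A2 from 2.23 and 1.49 to 6.05 and 5.73 RPKM (1.64). FOS, a subunit of AP-1, rose from 1.60 and 1.47 to 8.21 and 8.43 RPKM (log2 difference 2.36, adjusted p = 1.3e-07). ARC, known as an activity-regulated gene of neurons, was near 0.1 RPKM in vehicle and reached 1.06 and 1.39 RPKM, a log2 difference of 2.87 that is understated by the added 0.1. NR4A3 and ARC were under 0.5 RPKM in vehicle and could pass the filter through the CpdA samples. The part of this in the count that rose was not tested. CTGF and IER2 fell, CTGF from 466 and 244 to 175 and 166 RPKM (-0.98) and IER2 from 59.6 and 63.8 to 42.5 and 41.2 RPKM (-0.56). The zinc finger gene KLF2 (-0.86) and the AP-1 gene JUN (-0.33) were the other decreases. CYR61, a matricellular protein gene, was at 884 and 489 RPKM in vehicle and 482 and 462 RPKM after CpdA (adjusted p = 0.14), so that its CpdA values lay just below the lower vehicle value. Vehicle replicate 2 was above replicate 1 in 4 of the 32 genes, with a median difference of -0.52, whose part in these counts was not tested. Without vehicle replicate 1, 17 rose and 4 fell, without vehicle replicate 2, 11 rose and 12 fell, and without either CpdA 4 h replicate, 10 rose and 2 fell.

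Regulators that switch MAP kinase signalling off were called in both directions. The nuclear phosphatases DUSP2 and DUSP1 rose, DUSP2 from 0.973 and 0.823 to 4.60 and 5.32 RPKM (log2 difference 2.34, adjusted p = 9.6e-06) and DUSP1 from 14.6 and 11.6 to 46.8 and 47.4 RPKM (1.85, adjusted p = 4.1e-06). DUSP16 and DUSP10, which act on JNK and p38, rose by 0.74 and 0.38. Several ERK feedback genes fell. DUSP6, the cytoplasmic ERK phosphatase, fell from 69.7 and 57.2 to 23.3 and 23.8 RPKM, a log2 difference of -1.42 ± 0.08 (SE, adjusted p = 1.5e-05). The Sprouty gene SPRY1 fell from 4.85 and 4.32 to 1.70 and 1.86 RPKM (-1.31), and SPRY4 (-0.98) and the related SPRED1 (-0.49) were lower too. In all, 4 of 15 rose (26.7%) and 5 fell (33.3%), beside 6.76% and 13.8% of all genes. ERRFI1, an inhibitor of the EGF receptor, was at 198 and 138 RPKM in vehicle and 181 and 177 RPKM after CpdA, within the spread of vehicle.

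Inflammatory genes were more often lower than higher. Of 28 NF-kB targets and cytokines tested, 13 fell (46.4%) and 3 rose (10.7%), beside 13.8% and 6.76% of all genes, with a median of -0.33. CSF2 (GM-CSF) fell from 12.8 and 6.08 to 1.55 and 1.54 RPKM, a 6.11-fold difference with a log2 value of -2.44 ± 0.31 (SE, adjusted p = 0.00077). Against vehicle replicates 1 and 2 taken singly, CSF2 had log2 differences of -2.97 and -1.91. The adhesion receptor gene ICAM1 fell from 51.6 and 47.8 to 22.7 and 22 RPKM, a log2 difference of -1.15 ± 0.05 (SE, adjusted p = 1.7e-06), with duplicates close to each other in both groups. The chemokine genes CXCL1 and CCL2 fell from 5.14 and 1.92 to 1.06 and 0.887 RPKM (-1.60, adjusted p = 0.011) and from 2.72 and 1.39 to 0.700 and 0.652 RPKM (-1.40, adjusted p = 0.01). The ubiquitin-editing inhibitor of NF-kB, TNFAIP3 (A20), fell from 5.35 and 3.32 to 2.18 and 1.88 RPKM (log2 difference -1.02, adjusted p = 0.0041). IL11, of the IL6 family of cytokines, went the other way, from 10.2 and 7.80 to 30.6 and 31.8 RPKM, with a log2 difference of 1.79 ± 0.10 (SE, adjusted p = 1.5e-05). CXCL2 (0.44) and NFKBIB (0.22) were the other increases, and the NF-kB subunit RELA was at 73 and 74.3 and then 66.7 and 66.5 RPKM (adjusted p = 0.062). Vehicle replicate 2 was below replicate 1 in most of this list, above it in 6 of 28 genes, with a median difference of -0.30. The part of this difference in the result was not tested. The count that fell was 7 without CpdA 4 h replicate 2, and the count that rose was 6 without vehicle replicate 1, 2 without vehicle replicate 2 and 1 without either CpdA 4 h replicate. IL24, a cytokine of the IL10 family outside this list, rose from 0.824 and 0.573 to 3.18 and 3.03 RPKM (log2 difference 2.02, adjusted p = 9.1e-05).

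More growth factor ligands and TGF-beta pathway genes fell than rose, as was so for all genes tested. Of 22 ligands, 8 fell (36.4%) and 3 rose (13.6%), beside 13.8% and 6.76% of all genes. PDGFB, a ligand of the PDGF receptors, fell from 7.19 and 2.11 to 0.526 and 0.377 RPKM, a log2 difference of -2.88 ± 0.43 (SE, adjusted p = 0.0018). Its vehicle values were more than 3-fold apart, with log2 differences of -3.74 and -2.02 from replicates 1 and 2 taken singly, and both CpdA values were under the lower one. FGF5 fell from 3.62 and 3.31 to 1.62 and 1.65 RPKM (-1.04), EDN1 from 22.7 and 10.2 to 8.05 and 7.23 RPKM (-0.99), and BMP2 fell as well (-0.95). The EGF receptor ligands AREG and EREG rose, AREG from 1.67 and 1.61 to 3.50 and 3.87 RPKM (log2 difference 1.12, adjusted p = 7.4e-05) and EREG by 0.51, and TGFB2 rose by 0.26. VEGFA was at 124 and 93.3 RPKM in vehicle and 91.6 and 94.3 RPKM after CpdA (adjusted p = 0.27). Of 21 TGF-beta pathway and ID genes, 10 fell (47.6%) and 2 rose (9.52%), with a median of -0.32. The pathway inhibitors SMAD7 and SMURF2 fell, SMURF2 from 94.9 and 87.2 to 49.6 and 47.9 RPKM (log2 difference -0.90, adjusted p = 1.9e-05), and SMAD7 (-0.92) did so together with PMEPA1 (-0.67) and SKIL (-0.58). The corepressor gene TGIF1 (0.80) and the signal transducer SMAD2 (0.20) rose, and SKI was at 23.5 and 24.8 and then 20.9 and 22 RPKM. The counts that fell were 5 for ligands without either CpdA 4 h replicate and 6 for the TGF-beta list without CpdA 4 h replicate 1, and 1 ligand rose without CpdA 4 h replicate 1.

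**Figure D4:**
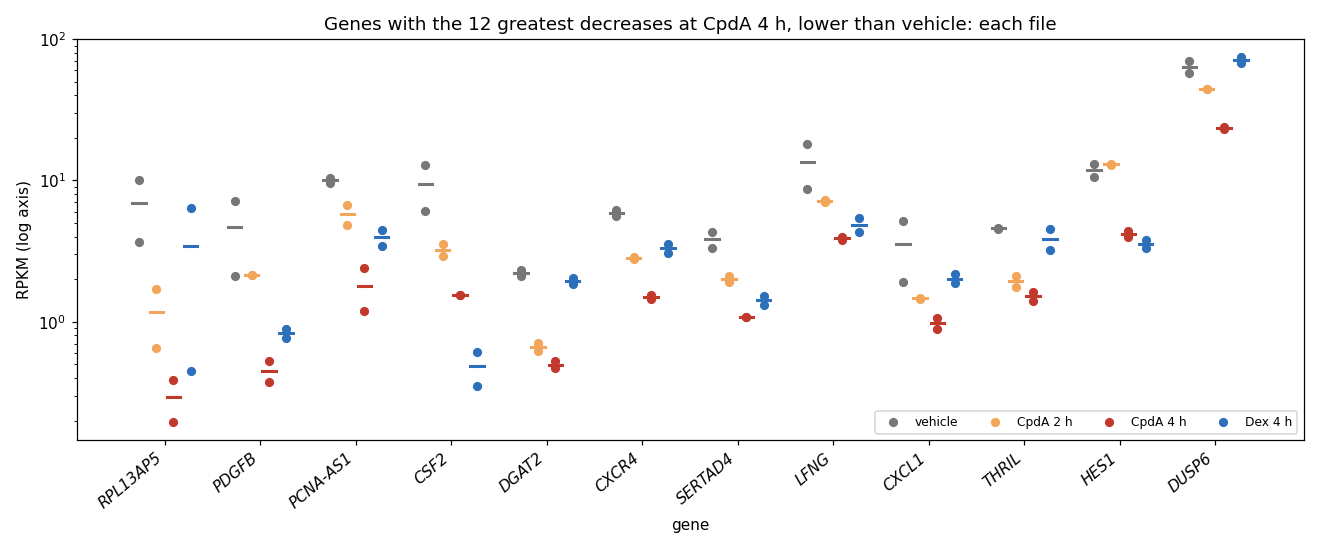
RPKM (log axis) of the 12 genes with the greatest decreases at CpdA 4 h that passed the rule for naming, in each vehicle, CpdA 2 h, CpdA 4 h and Dex 4 h sample, with short bars at the mean of 2 samples. The CpdA 4 h samples lie below both vehicle samples in all 12 genes, and the vehicle samples of RPL13AP5, PDGFB, CSF2, LFNG and CXCL1 are over 2-fold apart.

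Other leading decreases were spread over several functions. DGAT2, which makes triglyceride, fell from 2.32 and 2.12 to 0.467 and 0.527 RPKM, a log2 difference of -1.96 ± 0.11 (SE, adjusted p = 1.4e-05). The chemokine receptor gene CXCR4 fell from 6.15 and 5.56 to 1.44 and 1.55 RPKM (-1.90, adjusted p = 4.1e-06), and the Notch target HES1 from 13.1 and 10.5 to 3.99 and 4.37 RPKM (-1.47, adjusted p = 3.7e-05). LFNG, a glycosyltransferase that modifies Notch, fell from 18.2 and 8.73 to 4.01 and 3.76 RPKM (-1.68, adjusted p = 0.0028), and SERTAD4 from 4.33 and 3.33 to 1.08 and 1.09 RPKM (-1.72, adjusted p = 6.8e-05). SDPR, a caveolar protein also called cavin 2, fell from 15.3 and 9.99 to 4.79 and 4.59 RPKM (-1.38, adjusted p = 0.00039). Some leading symbols share sequence or position with other genes and are less certain. RPL13AP5 is a pseudogene of RPL13A, at 10.1 and 3.66 RPKM in vehicle and 0.387 and 0.196 RPKM after CpdA, a log2 difference of -4.03 ± 0.98 (SE, adjusted p = 0.019) that was not called without vehicle replicate 1 or either CpdA 4 h replicate. PCNA-AS1, antisense to PCNA, fell from 9.60 and 10.4 to 2.38 and 1.20 RPKM (-2.49, adjusted p = 0.00056), and PCNA from 109 and 109 to 97.6 and 95.3 RPKM (-0.18, adjusted p = 0.024). Whether reads were counted by strand was not stated, so reads of such a pair cannot be told apart. The noncoding RNA THRIL (-1.55, adjusted p = 0.00019) and SPRY4-IT1 (-1.36, adjusted p = 0.015), which lies within SPRY4, also fell. The readthrough symbol TGIF2-C20orf24 rose from 1.20 and 1.30 to 3.02 and 2.53 RPKM (1.09, adjusted p = 0.021). Symbols of short RNAs and their host genes made up 12 of the 68 increases and 3 of the 45 decreases. The library protocol was for mRNA and its 50-base reads do not measure mature miRNAs, so these symbols were not described one by one.

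Most cell cycle genes fell by small amounts. Of 44 S phase and mitosis genes, 30 fell and 1 rose, none beyond 2-fold, with a median of -0.25. This share of decreases compares with 13.8% of all genes tested. The mitotic kinase PLK1 fell from 39 and 39.7 to 24.4 and 24.5 RPKM, a log2 difference of -0.68 ± 0.05 (SE, adjusted p = 3.7e-05), and AURKA from 38.5 and 37.8 to 24 and 23.8 RPKM, a difference of -0.67 ± 0.04 (SE, adjusted p = 1.3e-05). The duplicates of both kinases lay within 1 RPKM of each other in each group. E2F2 (-0.98) and the licensing factor CDT1 (-0.58) fell as well, whereas CDC6, another licensing factor, was the member that rose (0.27, adjusted p = 0.017). TYMS, the thymidylate synthase gene, was at 119 and 125 RPKM in vehicle and 111 and 112 RPKM after CpdA (adjusted p = 0.055). The count that fell was 17 without CpdA 4 h replicate 1. Of 13 G1 cyclins and CDK inhibitors, 4 fell (30.8%) and 1 rose (7.69%), the latter near the 6.76% of all genes. CCND1 (cyclin D1) fell from 294 and 327 to 199 and 198 RPKM (-0.64, adjusted p = 7.4e-05), and CDK6 (-0.49) and the inhibitors CDKN2C (-0.57) and CDKN2D (-0.36) fell too. CDKN1A (p21) rose from 134 and 110.3 to 205 and 196 RPKM (0.72, adjusted p = 0.00035), and CDK4 was at 62.7 and 63 and then 63 and 63 RPKM.

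In these cells with mutant p53, 2 of 20 p53 targets rose (10%) and 5 fell (25%), beside 6.76% and 13.8% of all genes. The part of the p53 mutation in these counts was not tested. CDKN1A and GADD45A (0.53, adjusted p = 0.04) were the increases. ZMAT3 fell from 3.52 and 3.57 to 1.45 and 1.59 RPKM (-1.17, adjusted p = 7.4e-05), and PLK3 (-0.76), the death receptor gene TNFRSF10B (-0.35) and PHLDA3 (-0.31) also fell, with 3 decreases left without vehicle replicate 1 or CpdA 4 h replicate 1. BAX was at 51.6 and 51.9 RPKM in vehicle and 53.7 and 50.4 RPKM after CpdA. Among 15 tubulin genes, 2 rose (13.3%) and 1 fell (6.67%). TUBE1 (0.74) and TUBB2A (0.17) rose, TUBB4B fell (-0.26) and TUBA1B was at 313 and 314 and then 318 and 314 RPKM.

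Metabolic lists stayed near the background. Of 28 cholesterol genes, 1 rose, the sterol carrier gene STARD4 (0.36), and 3 fell, among them the synthesis genes MVK (-0.31) and EBP (-0.18). The counts were 4 and 1 without vehicle replicate 1, 0 and 6 without vehicle replicate 2, and 0 and 1 without either CpdA 4 h replicate. Of 26 triglyceride and fatty acid genes, 5 fell and 1 rose. Beside DGAT2, GPAM, which starts glycerolipid synthesis, fell from 2.40 and 2.59 to 1.49 and 1.59 RPKM (-0.66, adjusted p = 0.0014). HILPDA (-0.23) and the desaturase gene SCD (-0.22) fell, the lipid droplet gene PLIN2 rose (0.20) and FADS2 was at 150.4 and 142 and then 140.2 and 138 RPKM. Only 2 of the triglyceride genes fell without vehicle replicate 1 or without either CpdA 4 h replicate. Of 33 hypoxia and glycolysis genes, 2 rose and 2 fell. The peptide hormone gene ADM rose from 15.3 and 12.4 to 27.6 and 27.9 RPKM (1.01, adjusted p = 9.2e-05) and HIF1A by 0.15, while the oxygen sensor EGLN1 (-0.33) and the mitophagy receptor BNIP3L (-0.22) fell. Vehicle replicate 2 was above replicate 1 in 2 of these 33 genes. Without vehicle replicate 1, 5 rose, without vehicle replicate 2, 5 fell, and 6 rose after median scaling. ENO1, the enolase gene, had a log2 difference of 0.02 ± 0.06 (SE, adjusted p = 0.8).

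GR mRNA passed no test. NR3C1 was at 22.9 and 20.4 RPKM in vehicle and 23 and 22.1 RPKM after CpdA, a log2 difference of 0.06 ± 0.09 (SE, adjusted p = 0.68). Of 24 GR and classical GR target genes, 9 rose (37.5%) and 3 fell (12.5%), beside 6.76% and 13.8% of all genes, with a median of 0.11. FKBP5, the HSP90 co-chaperone that ligand-bound GR induces, was at 5.94 and 7.06 RPKM in vehicle and 7.80 and 7.96 RPKM after CpdA (0.28, adjusted p = 0.023), and TSC22D3 at 9.79 and 8.22 and then 10.5 and 11.3 RPKM (0.27, adjusted p = 0.03). At Dex 4 h the same genes stood 4.98 and 5.10 above vehicle on the log2 scale. PER1, a clock gene, rose from 2.07 and 1.28 to 2.88 and 3.02 RPKM (0.82, adjusted p = 0.0083), while PDK4, a kinase of pyruvate dehydrogenase, was at 0.158 and 0.140 RPKM in vehicle and 0.333 and 0.268 RPKM after CpdA (0.68, adjusted p = 0.0031). All 4 of these PDK4 values were under 0.5 RPKM, so that the gene was tested only through other groups, and in a limma fit of the 4 samples alone it was not called (adjusted p = 0.097). DUSP1 and DDIT4, given above, also belong to this list. ANGPTL4 (-0.71), TFCP2L1 (-0.55) and GLUL (-0.13) fell. The count that rose was 5 without CpdA 4 h replicate 1 and 4 without replicate 2. Metallothioneins are induced by GR and metals. Of 8 metallothionein and metal response genes, 1 rose (12.5%) and 1 fell (12.5%), beside 6.76% and 13.8% of all genes. The increase was the zinc exporter SLC30A1 (0.32), which is not a metallothionein, and the decrease was MT1A (-0.63). MT2A was at 546 and 564 RPKM in vehicle and 483 and 471 RPKM after CpdA (adjusted p = 0.1).

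None of 5 further genes that the study had picked for follow-up passed the test at CpdA 4 h when all samples were used. BIRC3, an inhibitor of apoptosis, was at 17.1 and 8.72 RPKM in vehicle and 8.65 and 8.33 RPKM after CpdA, with a log2 difference of -0.52 ± 0.24 (SE, adjusted p = 0.16). The phosphatase gene PTPN1 was at 71.3 and 65 and then 68.1 and 64.1 RPKM, a log2 difference of -0.04 ± 0.05 (SE, adjusted p = 0.64). NFKBIA, the inhibitor of NF-kB, was at 47.9 and 37.8 and then 48.7 and 47 RPKM, a log2 difference of 0.17 ± 0.10 (SE, adjusted p = 0.27). The scaffold gene NEDD9 was at 32.9 and 18.2 and then 20 and 18 RPKM, a log2 difference of -0.36 ± 0.21 (SE, adjusted p = 0.27), and the Hippo kinase gene STK4 at 12.8 and 11.9 and then 12.3 and 12.2 RPKM, a log2 difference of -0.01 ± 0.07 (SE, adjusted p = 0.92). In BIRC3 and NEDD9 the vehicle samples were almost 2-fold apart, and both CpdA values lay near the lower of them. Without vehicle replicate 2 the limma test called BIRC3 (adjusted p = 0.00043) and NEDD9 (-0.79, adjusted p = 0.0012) lower, and without vehicle replicate 1 it called NFKBIA higher (0.34, adjusted p = 0.017).

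The CpdA 4 h samples were next compared with CpdA 2 h to see which differences had grown. In this direct comparison 662 genes (5.21%) were higher and 915 (7.2%) lower at 4 h at an FDR under 0.05. Of both directions together there were 1577 genes, against 261 to 299 when any CpdA replicate was left out and 2489 to 2500 when a Dex 4 h replicate, which bears on the shared spread, was left out. Most HSP70, NRF2 and unfolded protein genes were higher at the later time. HSPA6 was at 11.6 and 13.8 RPKM at 2 h, a 4 h minus 2 h difference of 1.94 (adjusted p = 0.00037), and HMOX1 at 42.3 and 43.8 RPKM, a difference of 1.25 (adjusted p = 9.7e-05). GCLC was at 11.9 and 11.5 RPKM at 2 h, a difference of 1.44 (adjusted p = 0.00014), and HERPUD1 at 118 and 111 RPKM, a difference of 0.98 (adjusted p = 5.8e-05). ARC and TGIF2-C20orf24 were likewise higher at 4 h, by 1.64 (adjusted p = 0.0029) and 2.43 (adjusted p = 0.0014). Of the lists, 10 of 12 HSP70 and HSP110 genes, 18 of 30 NRF2 genes and 18 of 24 unfolded protein genes were higher at 4 h, and none of them was lower. Fewer were higher in the other chaperone lists, namely 9 of 35 DNAJ genes, 7 of 25 HSP90 genes and 5 of 17 small heat shock, chaperonin and HSF genes, with 0 lower in each. Of 28 ATF4 genes, 12 were higher and 3 lower.

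Immediate early genes ran in the opposite direction, with 20 of 32 lower at 4 h than at 2 h and 2 higher. Their median difference from vehicle was 0.83 at 2 h and 0.11 at 4 h, and in the 2 h comparison with vehicle 1.89% of all genes were called higher and 4.29% lower. NR4A2 was at 24.2 and 22 RPKM at 2 h, a 4 h minus 2 h difference of -1.95 (adjusted p = 0.00037), and NR4A1 at 26.9 and 30.3 RPKM, a difference of -1.84 (adjusted p = 0.0012). ATF3 was at 67.5 and 64.2 RPKM at 2 h, a difference of -1.07 (adjusted p = 0.044). All 3 remained above vehicle at 4 h. Of the S phase and mitosis list 27 of 44 genes were lower at 4 h than at 2 h, and its median difference from vehicle was -0.02 at 2 h. HES1 was at 12.9 and 13.1 RPKM at 2 h, beside 13.1 and 10.5 in vehicle, with a 4 h minus 2 h difference of -1.62 (adjusted p = 0.00014). PDGFB was at 2.14 and 2.13 RPKM at 2 h, a difference of -2.03 (adjusted p = 0.017). For IL11 and IL24 no difference between the times was called, at -0.01 (adjusted p = 0.98) and 0.01 (adjusted p = 0.99). Of the 68 genes increased beyond 2-fold at 4 h, 31 were higher and 10 lower than at 2 h. Of the 45 decreased, 23 were lower than at 2 h and 0 higher, by the same limma test. The 68 and 45 genes were picked by their CpdA 4 h values, which also enter this comparison. The picking favours these directions, and its part in the counts was not tested.

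**Figure D5:**
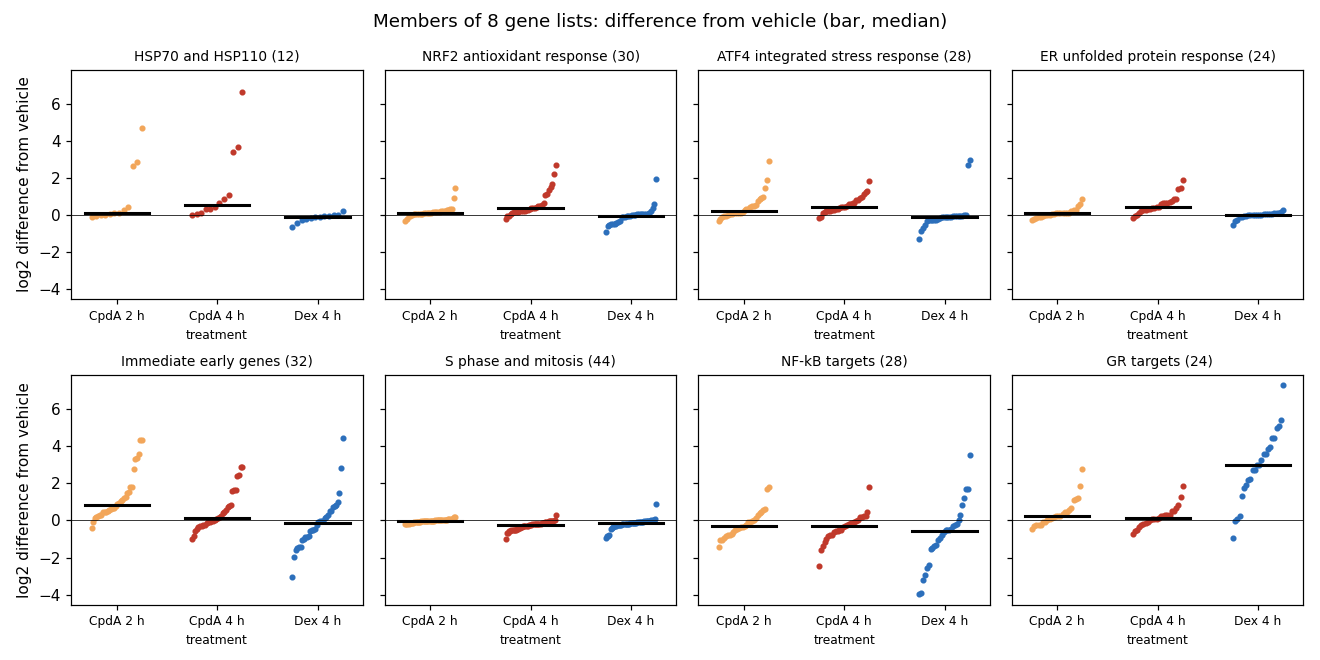
Log2 difference from vehicle (y axis) of every tested member of 8 gene lists at CpdA 2 h, CpdA 4 h and Dex 4 h, with each point a gene, points ordered by value within a list and the bar at the median. The 3 treatments share the vehicle samples. The immediate early list has its highest median at CpdA 2 h, at 0.83, and the GR target list at Dex 4 h, at 2.97.

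Compared directly with Dex at the same time, CpdA 4 h samples were higher in 2286 genes (18%) and lower in 1955 (15.4%). Most GR targets were lower with CpdA than with Dex. Of 24 listed, 20 were lower and 3 higher with CpdA than with Dex, and the list's median difference from vehicle was 2.97 for Dex against 0.11 for CpdA. Members low in vehicle and CpdA 4 h, such as PDK4, could pass the filter through the Dex groups, which favours genes high with Dex. The part of this in the count and the medians was not tested. In the comparison of Dex 4 h with vehicle 9.26% of all genes were called higher and 18.2% lower. The CpdA minus Dex difference was -6.59 (adjusted p = 2.4e-09) for PDK4 and -2.42 (adjusted p = 8e-08) for MT2A. Among genes that had changed beyond 2-fold with CpdA, SDPR, TNFAIP3 and SPRY4-IT1 showed the greatest differences in that direction. SDPR differed by -2.76 (adjusted p = 1.4e-06) and TNFAIP3 by -2.23 (adjusted p = 1.5e-05), and both stood above vehicle after Dex, by 1.38 and 1.20.

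Most HSP70, NRF2, ATF4 and unfolded protein genes were higher with CpdA than with Dex. HSPA6 was at 0.360 and 0.302 RPKM after Dex, a CpdA minus Dex difference of 6.83 (adjusted p = 8.6e-09), and HMOX1 at 8.16 and 8.26 RPKM, a difference of 3.63 (adjusted p = 4.5e-09). IL11 was at 1.06 and 1.09 RPKM after Dex, below its vehicle values, and was higher with CpdA by 4.74 (adjusted p = 7.2e-09). NR4A3 was at 0.0789 and 0.0874 RPKM after Dex, a difference of 3.71 (adjusted p = 2.4e-06). Both HSPA6 and NR4A3 were under 0.5 RPKM in vehicle and Dex 4 h and could pass the filter through the CpdA samples. All 12 HSP70 and HSP110 genes were higher with CpdA, as were 23 of 30 NRF2 genes, 23 of 28 ATF4 genes and 20 of 24 unfolded protein genes. In these lists 1 NRF2 gene and 2 ATF4 genes were lower. Of the DNAJ genes 13 of 35 were higher and 4 lower, of the HSP90 genes 10 of 25 were higher and 2 lower, and of the small heat shock, chaperonin and HSF genes 8 of 17 were higher and 1 lower. DNAJB4 was at 36.8 and 37.6 RPKM after Dex, 1.96 above vehicle on the log2 scale, with a CpdA minus Dex difference of -0.75 (adjusted p = 0.00016). GCLC, the NRF2 gene that was lower, was at 36.9 and 40.3 RPKM after Dex and 32.2 and 31.5 RPKM after CpdA, a difference of -0.27 (adjusted p = 0.043). CSF2 was at 0.353 and 0.612 RPKM after Dex, with a CpdA minus Dex difference of 1.53 (adjusted p = 0.0045). Of the 68 increased genes, 54 were higher and 5 lower than with Dex. Of the 45 decreased genes, 27 were lower and 7 higher. Both sets were picked by the CpdA 4 h values that enter this comparison too, which favours these directions. The part of the picking in the counts was not tested. The doses, 10 μM CpdA and 100 nM Dex, differed.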

How the data were processed

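RNA-seq was analysed for 10 samples of MDA-MB-231 cells, 2 in each of 5 groups, and the other 12 samples of the series were not used. Per the labels and the study's methods, libraries were made with the Illumina TruSeq RNA kit, and 50-base single-end reads were aligned by the authors with TopHat2 2.0.13 and quantified in Partek 6.6 as RPKM, 1 deposited table per sample. The submitters' processing notes also name Bowtie. The genome build used for RNA, the step from transcripts to symbols and strand settings are not given in the sources used here. The deposited RPKM values carry no counts, so depth is known only as a ratio between samples.

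Values were taken as log2(RPKM + 0.1), and genes that reached 0.5 RPKM in 2 or more of the 10 samples were kept. Each gene was fitted over 5 groups with limma 3.58.1 in R 4.3.3 (lmFit, eBayes with trend). Adjustment of p-values followed Benjamini and Hochberg and ran over all 12713 genes. A gene was called at an adjusted p under 0.05 and, where stated, a fold change above 2. All tests were two-sided, and p-values measure the spread between these duplicates. On simulated data of this comparison the fit recovered 187 of 200 genes changed by a log2 value of 1 and 198 of 200 changed by 2, with 7 false calls in each of 12544 and 12555 genes tested. The changed genes left out those of low mean level and were far fewer than the 2609 called in the data. The noise was independent and normal, with each gene's spread pooled over the groups. Recovery of low genes was therefore not tested.

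The genes named are the 12 largest increases and 12 largest decreases past both thresholds with a mean of at least 1 RPKM in either group and without overlap between groups, leaving out short RNAs. Added were up to 4 members of each list in each direction, the most abundant members that did not pass, the 3 genes of each direction that differed most from CpdA 2 h and from Dex 4 h, NR3C1, HSF1, NFE2L2 and the 5 genes of the study's follow-up. Of up to 2 members per list that did not pass, the more abundant is given. FKBP5, TSC22D3, ATF4, PCNA, GCLM, TXNRD1, DERL3, MXD1, KRT17, SNAI1, BMF, NOG, PTX3, FZD1 and list members named without a value were named after their values were seen. A few genes that the rule names are not reported here. The comparison, its members and the 23 lists were chosen with earlier results of these data known.

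Promoter windows came from RefSeq (GRCh38.p14), where 9966 of the 12713 symbols tested were matched, 9358 of them by the current symbol. Python 3.11.15, numpy 2.4.6, pandas 2.3.3 and matplotlib 3.10.9 were used. The alternatives were other pseudocounts, filters, scalings and eBayes settings, a fit of the 4 samples only, a block for the replicate number, and leaving out each vehicle, CpdA 2 h, CpdA 4 h and Dex 4 h sample in turn.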

Additional observations from a re-analysis of the deposited data

Results flagged for a closer look

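The difference between CpdA at 4 h and at 2 h was itself tested with limma for 163 genes named in the text, and it passed an adjusted p of 0.05 in 84 of them, 40 higher and 44 lower at 4 h. Over all 12713 genes tested, 5.21% were higher and 7.2% lower. Many of the 163 were picked by their CpdA 4 h values and some for this very difference. The picking favours such calls, so the count of 84 is not a result about these genes. Values are log2 differences, 4 h minus 2 h, so that a negative value is a lower level at 4 h. No group had more than 2 samples, so none could be screened for a sample far from the others. The HSP70, HSP110 and co-chaperone genes that were higher at 4 h were HSPA6 (1.94), HSPA1A (0.85), HSPA1B (0.75), HSPH1 (0.61), HSPA4 (0.21), DNAJB1 (0.37), DNAJB9 (0.86), DNAJB4 (0.53), BAG3 (0.33), HSP90AA1 (0.31), HSP90AB1 (0.29), HSPB8 (0.49), HSPD1 (0.34) and TCP1 (0.21). The genes of protein degradation that were higher at 4 h were PSMC4 (0.21), ZFAND2A (0.78), SQSTM1 (0.45) and VCP (0.24). The antioxidant genes that were higher at 4 h were HMOX1 (1.25), OSGIN1 (1.31), GCLC (1.44), GCLM (1.04), SRXN1 (1.15) and TXNRD1 (0.94). Among stress response genes of the ATF4 and endoplasmic reticulum lists, with DERL3, the higher values at 4 h were those of HERPUD1 (0.98), SDF2L1 (1.19), HSPA5 (0.57), DDIT3 (0.27) and DERL3 (1.04), and the lower those of ATF3 (-1.07), DDIT4 (-0.59) and CHAC1 (-0.34).

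Among immediate early genes the higher values at 4 h were those of ARC (1.64), and the lower those of NR4A2 (-1.95), NR4A1 (-1.84), NR4A3 (-1.45), CTGF (-1.63), CYR61 (-1.35), IER2 (-0.69), JUN (-0.61) and FOS (-0.39). Among MAP kinase phosphatase and feedback genes the higher values at 4 h were those of DUSP2 (0.78), and the lower those of DUSP1 (-0.91), DUSP6 (-0.91), SPRY4 (-0.93), SPRY1 (-0.69), ERRFI1 (-0.54) and SPRY4-IT1 (-1.17). Among inflammatory and GR-related genes the higher values at 4 h were those of NFKBIA (0.93), FKBP5 (0.38) and NFKBIB (0.27), and the lower those of ICAM1 (-0.29) and NEDD9 (-1.07). Among ligand, receptor and TGF-beta pathway genes the higher value at 4 h was that of TGIF1 (0.61), and the lower those of PDGFB (-2.03), EDN1 (-1.55), NOG (-0.89), CXCR4 (-0.88), FZD1 (-0.80), SMAD7 (-0.64), BMP2 (-0.57), VEGFA (-0.46) and SMURF2 (-0.38). Among cell cycle, p53 and tubulin genes the higher values at 4 h were those of TUBE1 (0.52) and TUBB2A (0.20), and the lower those of E2F2 (-1.02), CDKN2C (-0.56), AURKA (-0.50), CDT1 (-0.48), PLK1 (-0.47), CDKN2D (-0.42), PHLDA3 (-0.27) and CCND1 (-0.25). Among lipid and hypoxia genes the higher values at 4 h were those of ADM (0.36), and the lower those of EGLN1 (-0.46), MVK (-0.40) and FADS2 (-0.17). Among other genes the higher values at 4 h were those of TGIF2-C20orf24 (2.43) and MXD1 (0.62), and the lower those of PCNA-AS1 (-1.69), HES1 (-1.62), SDPR (-1.48), SERTAD4 (-0.83) and BMF (-0.46).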

How the results depend on the processing

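The direction of all 135 named genes called at CpdA 4 h was kept under each of the 18 alternatives in which they were tested, and 91 of them also kept their call. Of the other 44, between 0 and 36 were lost under a given alternative, the most, 36, without either CpdA 4 h replicate, and the cause was not tested. Increases past 2-fold numbered 68, but 43 with a pseudocount of 1 and 36 where an RPKM of at least 1 was asked in every sample, and decreases 45, 21 and 28 in the same order. A pseudocount of 1 shrinks the fold of low genes by construction, and the stricter filter tests fewer genes. Leaving out 1 sample gave 52 to 70 increases and 43 to 67 decreases past 2-fold, and at an FDR under 0.05 alone 406 to 1249 increases and 782 to 2390 decreases. Calls between CpdA 4 h and 2 h ranged from 261 to 2500 and calls between CpdA 4 h and Dex 4 h from 2759 to 5183 when 1 sample was left out. Leaving out a sample of a group that a comparison does not involve (CpdA 2 h or Dex 4 h) was a choice made after seeing the data, and Dex 2 h samples were not left out. Increases made up 33.0% of calls at an FDR under 0.05, 46.8% after quantile normalization and 45.3% after median scaling. When the fit held the replicate number as a block, the counts were 70 and 46 past 2-fold and 968 and 1916 by FDR alone, and the call of SMAD2 was lost. Deviations of same-numbered samples correlated between -0.057 and 0.198 over 10 pairs of groups, with 3 over 0.1 and 0.016 between vehicle and CpdA 4 h. The labels give the replicates only a number, and whether same-numbered samples were handled together was not tested.

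Reversals occurred only in genes that had not passed the test. With quantile normalization the log2 differences were -0.030 for CDC37, -0.025 for ENO1, -0.0087 for BAX, -0.0096 for CDK4, -0.051 for TUBA1B and 0.032 for STK4, and with median scaling 0.016 for HSF1 and 0.020 for STK4. With 1 of the 4 samples left out in turn, the genes concerned lay between -0.021 and 0.070 (CDC37), -0.14 and 0.37 (ERRFI1), -0.0024 and 0.34 (NFKBIA), -0.0068 and 0.056 (ENO1), -0.039 and 0.052 (BAX), -0.0019 and 0.0053 (CDK4), -0.025 and 0.15 (NR3C1), -0.080 and 0.045 (HSF1), -0.11 and 0.023 (PTPN1), -0.79 and 0.061 (NEDD9) and -0.060 and 0.034 (STK4). The side changed without vehicle replicate 1 for CDC37, CDK4, PTPN1, NEDD9 and STK4, without vehicle replicate 2 for ERRFI1, NFKBIA, ENO1, NR3C1 and HSF1, without CpdA 4 h replicate 1 for BAX, and without replicate 2 for PTPN1 (0.00094). The unknown depth and 2 samples a group limit what small differences can show.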

Other observations

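Gene families outside the 23 lists were looked at after their values had been seen and were counted by their symbols. The shares over all genes tested, to be set beside each count, were 6.76% higher and 13.8% lower. Aminoacyl-tRNA synthetases, which charge tRNAs for protein synthesis, included 8 increases and 0 decreases among 20 cytosolic genes tested (CARS, EPRS, GARS, MARS, NARS, SARS, WARS and YARS), with a median log2 difference of 0.14 against -0.04 over all genes. GARS and WARS are also members of the ATF4 list. Among the MCM genes, which load and form the replicative helicase, 6 of 9 fell and 0 rose, and among kinesins 12 of 33 fell and 1 rose. The Wnt receptor family FZD had 5 of 7 tested members lower (FZD1, FZD2, FZD4, FZD7 and FZD8) with a median of -0.80, and the ephrin receptors EPHA2, EPHA4, EPHB2 and EPHB4 were 4 of the 5 EPH genes tested, all 4 lower. Of 16 TNF receptor family genes, 6 fell and 0 rose. Mitochondrial complex I genes of the NDUF series and vacuolar ATPase genes gave 4 increases and 0 decreases each, among 47 and 20. The 4 increases among 47 NDUF genes were near the share of all genes. Of 442 ZNF genes, 20 rose and 49 fell, beside 6.76% and 13.8% of all genes.

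Further single genes past 2-fold stood outside every list. DERL3, a component of endoplasmic reticulum-associated degradation, was at 1.20 and 0.981 RPKM in vehicle and 3.15 and 2.92 RPKM after CpdA (log2 difference 1.40, adjusted p = 0.00048). MXD1, a repressor that competes with MYC for its partner MAX, rose from 2.95 and 3.93 to 8.91 and 9.30 RPKM (1.39, adjusted p = 0.00011). The keratin gene KRT17 rose from 1.04 and 0.978 to 2.43 and 2.26 RPKM (1.14, adjusted p = 0.00051) and SNAI1, a repressor of epithelial genes, from 0.572 and 0.542 to 1.32 and 1.35 RPKM (1.12, adjusted p = 0.00081). BMF, a pro-apoptotic BH3-only gene, fell from 3.64 and 2.99 to 1.16 and 1.21 RPKM (-1.40, adjusted p = 5.9e-05), and the BMP antagonist NOG from 57.1 and 59.0 to 24.6 and 23.1 RPKM (-1.28, adjusted p = 9.2e-07). The pentraxin gene PTX3 fell from 61.6 and 62.6 to 29.7 and 27.2 RPKM (-1.12, adjusted p = 3.8e-06) and FZD1 from 9.71 and 9.75 to 4.23 and 4.12 RPKM (-1.20, adjusted p = 4.1e-06). Adjusted p-values are from the same limma fit. In each of these genes both CpdA values lay on 1 side of both vehicle values.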
